A study of Mus musculus with 6 samples.

Results

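Long intergenic noncoding RNAs (lincRNAs) are transcripts that lie between protein-coding genes and are not annotated with a protein product. The lincRNA genes described here were those with the GENCODE M21 gene type lincRNA, off chromosomes X and Y, with a mean of at least 1 CPM (a gene's count divided by the library's total, times 1000000) over the 6 libraries. This left 104 genes of 2777 lincRNA genes in the count tables, and of 43432 genes in all. The rule used the mean level, which is therefore a description. It did not use the difference between the groups. The libraries came from polymorphonuclear neutrophils, sorted as CD45+ Ly6Ghi CD11b+ cells out of the dissociated uterus. All mice were 4 weeks old (P28), of strain C57BL/6, of the PRPL line, a cre-lox model of uterine tumours in which Cre is expressed from the Pgr locus (Pgrcre/+) and acts in cells that express Pgr. Both groups carried the same alleles, so there was no group without the tumour model. The normoxia group (n = 3 libraries) was kept in ambient air, and the hyperoxia group (n = 3) in a chamber with 60% oxygen for the 10 days from P18 to P28. The labels do not say that the libraries were separate animals, so each p-value rests only on how far these libraries vary, part of which can be technical.

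LincRNAs act in several ways. Some are structural RNAs of the nucleus: Neat1 is the scaffold of paraspeckles, and Malat1 is enriched in nuclear speckles, where splicing factors gather. Others are precursors from which microRNAs (miRNAs) are cut, and others again are studied for effects on a gene nearby, as Morrbid is for the cell death gene Bcl2l11 (Bim) in short-lived myeloid cells. Most have no assigned function, and 88 of the 104 still carried a model name (Gm or Rik). RefSeq held 68 of the 104 under the same symbol or synonym and called 63 of them lncRNA. It called 4 of them protein-coding, 1810058I24Rik, Gm9949, Gm26637 and Tmem250-ps, and Gm42418 a pseudogene (Rn18s-rs5).

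Several members contain miRNA genes, and the mature sequences are shown because miRNAs pair with their targets through the seed, bases 2 to 8 from the 5′ end, set in capitals. Sequences are from RefSeq on GRCm38.p6.
miR-142a-3p, in Mir142hg: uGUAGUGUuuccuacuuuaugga
miR-142a-5p, in Mir142hg: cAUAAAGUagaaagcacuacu
miR-155-5p, in Mir155hg: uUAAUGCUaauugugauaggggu
miR-101a-3p, in E130102H24Rik: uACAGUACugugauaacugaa
miR-191-5p, in 4833445I07Rik: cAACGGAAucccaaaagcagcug
miR-425-5p, in 4833445I07Rik: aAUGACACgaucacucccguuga
In all, 6 members held a miRNA gene in the annotation, and RefSeq gave 12 mature sequences, with 12 distinct seeds, from all of them except Smkr-ps. The precursor hairpin of Mir142, on chr11:87756864-87756927 (plus strand), is shown whole because its host had the lowest unadjusted p of these hosts, with both mature arms in capitals.
Mir142 hairpin: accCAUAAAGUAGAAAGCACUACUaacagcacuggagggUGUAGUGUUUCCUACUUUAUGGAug
Gene counts report the host transcript, and the mature miRNAs were not measured here.

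Levels per kilobase of merged exon ran from 0.180 to 293.7 CPM per kb with a median of 2.18. How reads were primed is not given, so dividing by exon length may not make levels of different genes comparable. The length moved ranks: Mir142hg (269 bases) ranked 15 by CPM and 3 per kilobase, and Neat1 (20771 bases) ranked 3 and 18. Malat1 was far above all other members at 294 CPM per kb. It lies on chr19:5795690-5802672 (minus strand). Its level was 2135, 2046 and 2306 CPM in the normoxia libraries and 2123, 1578 and 2116 CPM in the hyperoxia libraries, and it took between 54.1% and 63.4% of all counts on the 104 genes in a library. Hyperoxia library 2 held the lowest value and the other 5 libraries overlapped. The log2 difference, hyperoxia minus normoxia, was -0.13 ± 0.24 (SE, edgeR adjusted p = 0.865).

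**Figure D1:**
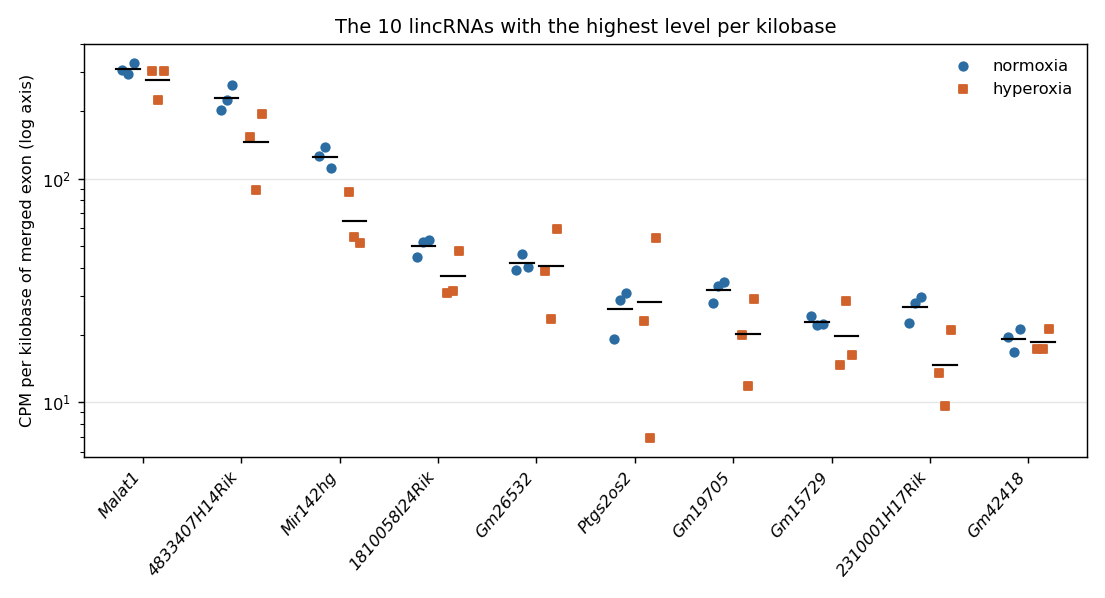
Levels of the 10 lincRNA genes with the highest mean CPM per kilobase of merged exon (log axis), with points for the 3 normoxia and 3 hyperoxia libraries and bars for group means. Malat1 stands highest at 294 CPM per kb on average, and Mir142hg is the gene of these whose groups lie apart with the lowest p.

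Neat1, next to Malat1 on chr19:5824708-5845478, held 235, 202 and 131 CPM in normoxia and 273, 75.6 and 136 CPM in hyperoxia, or 8.44 CPM per kb over all libraries. The groups overlapped and the hyperoxia libraries held both the highest and the lowest value, with a log2 difference of -0.17 ± 0.49 (SE, edgeR adjusted p = 0.919). Second per kilobase was 4833407H14Rik at 188 CPM per kb, on chr19:53460622-53462723. It held 303, 337 and 391 CPM in normoxia and 230, 133 and 289 CPM in hyperoxia, so that every hyperoxia library was lower than every normoxia library (log2 difference -0.64 ± 0.30, SE, edgeR adjusted p = 0.414). Its exons overlap those of Mirt1, also a member, on the opposite strand, and the reads of the 2 genes cannot be told apart without a known strand setting. Mirt1 itself held 63.0, 74.4 and 67.2 CPM in normoxia and 54.3, 25.3 and 67.4 CPM in hyperoxia.

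The next genes by level per kilobase were Mir142hg (94.9 CPM per kb), 1810058I24Rik (43.3), Gm26532 (41.2), Ptgs2os2 (27.1), Gm19705 (26.0), Gm15729 (21.3), 2310001H17Rik (20.7) and Gm42418 (18.9). The transcript of 1810058I24Rik encodes a small mitochondrial protein, also named Stmp1 or Mm47 in RefSeq, so its gene type as a lincRNA is out of date. It held 125, 145 and 148 CPM in normoxia and 85.5, 87.2 and 133 CPM in hyperoxia, with 1 hyperoxia library inside the normoxia range (log2 difference -0.44 ± 0.21, SE, edgeR adjusted p = 0.422). Gm42418 and its neighbour Gm26917 on chromosome 17 are models that collect ribosomal RNA reads. Gm42418 held 30.7 to 38.8 CPM in normoxia and 31.5 to 39.1 CPM in hyperoxia, and Gm26917 held 26.7 to 49.2 and 35.5 to 45.5 CPM, with overlapping groups for both.

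At the other end, 40 members averaged 1 to 2 CPM, 42 averaged 2 to 10 CPM and 22 averaged 10 CPM or more. The members just inside the threshold were Gm28068 at 1.02, 1110002J07Rik at 1.08 and Gm26884 at 1.11 mean CPM, and the lincRNA genes just outside it were Gm26545 at 0.991, Gm26860 at 0.983 and Gm16302 at 0.982. In 60 members all 6 libraries reached 1 CPM. A further reading of the threshold matters for the group comparison: 92 members averaged at least 1 CPM in both groups, 10 only in normoxia and 2 only in hyperoxia. Several well-known lincRNAs fell outside the set, with mean levels of 0.489 CPM for Mir17hg, 0.229 CPM for Meg3, 0.0637 CPM for H19 and 0.00392 CPM for Miat. Some other long noncoding RNAs were abundant but carry another gene type and are not members: Mir22hg averaged 92.2 CPM, Gas5 38.5 CPM, Dleu2 28.6 CPM and Tug1 18.1 CPM.

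The libraries held 38683293 to 61715617 gene counts. Neutrophil markers were abundant in all 6: S100a8 held 14033 to 46493 CPM and Csf3r 1361 to 2099 CPM. The 12 neutrophil markers summed to 118787 CPM in hyperoxia library 2 and to 55675 to 78323 CPM in the other 5 libraries. S100a8 was highest in hyperoxia library 2, and Csf3r was lowest there. Markers of several other cell types had higher sums in hyperoxia, most of all in libraries 2 and 3. The 14 macrophage and monocyte markers summed to 1427 to 1533 CPM in normoxia and to 1728, 2978 and 3251 CPM in hyperoxia, with 10 of the 14 higher in every hyperoxia library. The 10 endothelial markers summed to 10.4 to 17.1 CPM in normoxia against 27.2, 77.6 and 54.6 CPM in hyperoxia, and the 11 stromal markers to 21.9 to 61.9 CPM against 35.6, 224 and 270 CPM, where hyperoxia library 1 lay inside the normoxia range. The 9 markers of MHC class II and dendritic cells summed to 452 to 544 CPM against 625, 1208 and 2218 CPM. The epithelial list summed to 2651 CPM in hyperoxia library 2 and to 292 to 499 CPM in the other 5 libraries. Nearly all of this was Ltf, a granule gene that the neutrophil list also holds, at 2639 CPM in hyperoxia library 2 and 150 to 355 CPM elsewhere. Without Ltf the epithelial sum was 12.2 CPM in hyperoxia library 2 and 76.4 to 214 CPM in the others, so that library was the lowest. None of the markers in these lists was at 0 in all libraries. Their part in the lincRNA differences was not tested, and in bulk samples fewer cells of a type and less RNA per cell cannot be told apart.

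The 104 genes together took 0.371%, 0.379% and 0.404% of the counts in the normoxia libraries and 0.344%, 0.249% and 0.365% in the hyperoxia libraries, or 0.385 ± 0.0170% against 0.320 ± 0.0620% (SD, n = 3 each). All 3 hyperoxia values lay below all 3 normoxia values. Without Malat1 the shares were 0.168 ± 0.00903% and 0.126 ± 0.0317% (SD, n = 3 each). Hyperoxia library 2, the library with the highest neutrophil marker sum, the most Ltf and the fewest other epithelial counts, stood apart from the rest. The part of these markers in that library was not tested. Its log2 CPM over the members correlated with those of the other libraries at r = 0.835 to 0.890, against 0.930 to 0.987 for all other pairs, and it held the lowest value of 47 members. Hyperoxia library 1 was lowest for 33 members and hyperoxia library 3 for 10, whereas the normoxia libraries were lowest for 5, 2 and 7. The normoxia libraries resembled each other more closely, with a median coefficient of variation of 15.1% over the members against 39.5% in hyperoxia. That wider spread was general, since 79.6% of all genes tested, and 88 members, had the larger coefficient in hyperoxia.

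**Figure D2:**
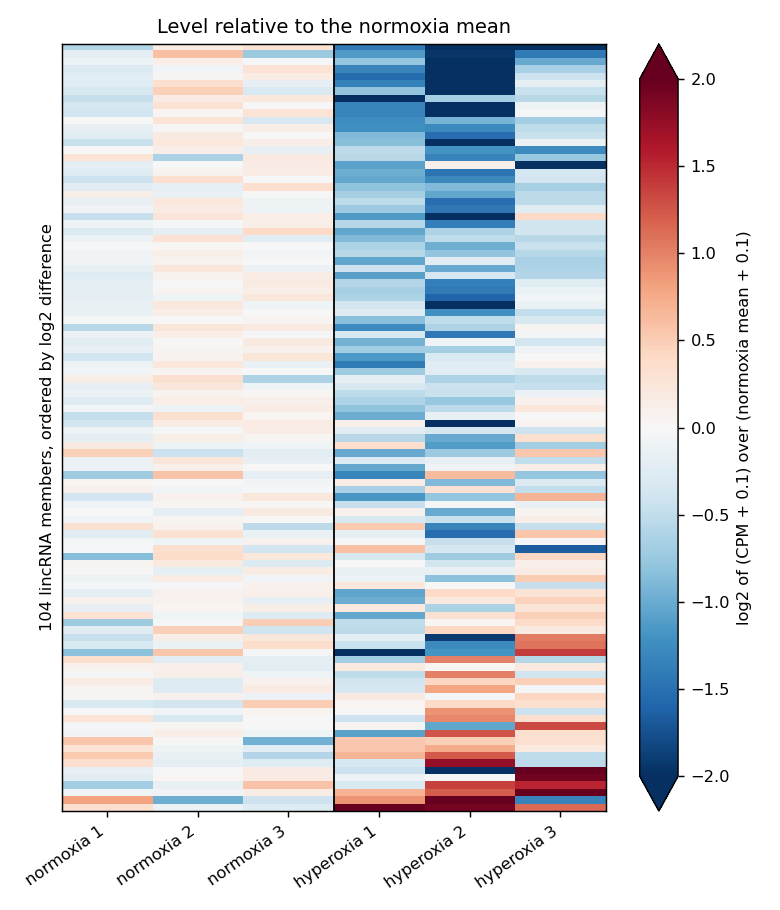
Level of each of the 104 lincRNA genes in each library as the log2 ratio to its normoxia mean (0.1 CPM added to both), with genes in rows ordered by log2 difference and colours clipped at 2 log2 units either way. Hyperoxia libraries 1 and 2 are mostly blue (lower), with medians of -0.58 and -0.67, and hyperoxia library 3 is paler, with a median of -0.14. These medians were taken with less than 0.1 CPM added, and to the library's level only, so they can differ slightly from the plotted ratios.

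Comparing hyperoxia with normoxia asks which transcripts of tumour-associated neutrophils differ when the host breathes more oxygen. No lincRNA passed the test in either direction: of the 104 members, all of which were tested, 0 were higher and 0 lower at an edgeR adjusted p under 0.05, as were 0.0% of the 12908 genes tested. The smallest adjusted p of a member was 0.132 (edgeR), and the smallest of any gene was 0.0974. With no adjustment, 14 members (13.5%) were lower at p under 0.05, against 3.91% of all genes tested, and 3 members were higher, or 2.88%, against 9.1% of all genes. DESeq2 called 2 members higher, Gm26522 and Gm15473, against 3.01% of genes, and 1 member lower, 4732465J04Rik, against 0.259%. Gm15473 was a member only through hyperoxia (1.91 CPM on average against 0.574 CPM in normoxia), so its calls are not independent of the level threshold. Among the 14 lower members, Gm13073 was a member only through normoxia (1.71 CPM against 0.559 CPM in hyperoxia). limma-voom called none at an adjusted p under 0.05, with 25 members lower and 2 higher at an unadjusted p under 0.05, against 4.76% and 7.69% of genes. With no filter on low counts, edgeR called 1 member higher (Gm26522, adjusted p = 0.0201) and 0 lower, against 0.886% and 0.0389% of genes. Without hyperoxia library 2, DESeq2 called 2 members higher and 3 lower, against 2.48% and 0.354%.

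Levels leaned towards normoxia. In 30 of the 104 members (28.8%) every hyperoxia library was lower than every normoxia library, against 9.81% of all genes tested and 11.2% of those with a mean of at least 1 CPM. In 2 members (1.92%), Gm26522 and Gm15473, every hyperoxia library was higher, against 8.1% and 6.8%. Some of the 30, such as Gm13073, averaged at least 1 CPM only in normoxia, so they became members through the group where they were high. Gm15473 became a member through hyperoxia in the same way. Of the 22 members with a mean of 10 CPM or more, away from the threshold, 6 were lower in every hyperoxia library and 0 higher. Their median log2 difference was -0.33. The log2 difference was below 0 in 76 members (73.1%), against 46.3% of all genes, and above 0 in 28, against 53.7%. Its median over the members was -0.33, with quartiles of -0.68 and 0.02, and 0.04 over all genes tested. Leaving out hyperoxia library 2 gave a median of -0.27, with 39 members lower and 5 higher in every remaining hyperoxia library, against 17.1% and 13.8% of genes. On levels scaled by TMM, 37 members were lower and 2 higher in every hyperoxia library, against 10.3% and 9.57% of genes. Of the 30 lower members, hyperoxia library 2 was the lowest in 19, hyperoxia library 1 in 8 and hyperoxia library 3 in 3.

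**Figure D3:**
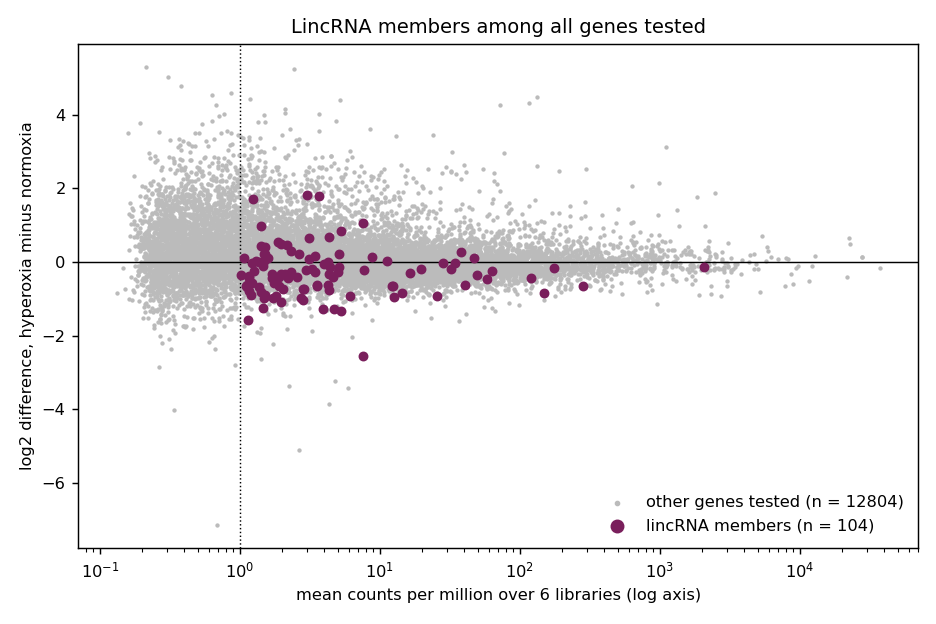
Log2 difference (hyperoxia minus normoxia, edgeR) against mean CPM over the 6 libraries (log axis) for the other genes tested (grey) and the 104 lincRNA genes (purple), with the threshold of 1 CPM dotted. The lincRNA genes have a median of -0.33 and reach from -2.54 to 1.82.

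Other noncoding gene types leaned the same way in their median log2 difference, so the medians do not set lincRNAs apart from them as a whole. The differences between gene types were not tested. Among genes tested with a mean of at least 1 CPM, the median log2 difference was -0.30 over 94 antisense genes, -0.29 over 62 processed transcripts, -0.37 over 28 genes typed TEC (transcripts still to be tested by experiment) and -0.18 over 53 processed pseudogenes. It was 0.01 over 9029 protein-coding genes. Every hyperoxia library was lower than every normoxia library in 24 of the antisense genes (25.5%), 10 of the processed transcripts (16.1%) and 6 of the TEC genes (21.4%), against 10.9% of the protein-coding genes. The processed pseudogenes did not share this, with 4 genes (7.55%).

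The lower member with the lowest p was 4732465J04Rik, a transcript of unassigned function with 7 merged exons on chr10:95746077-95797236 (plus strand). Its span overlaps no other gene, with small RNA and TEC genes not counted. Its levels were 14.8, 16.9 and 18.0 CPM in normoxia and 7.04, 6.84 and 11.7 CPM in hyperoxia. All 3 hyperoxia libraries were below the normoxia range, and libraries 1 and 2 stood at similar levels. Its log2 difference was -0.96 ± 0.24 (SE, edgeR adjusted p = 0.165, DESeq2 adjusted p = 0.0301). Its nearest coding gene, Gm33543, was not analysed here.

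Mir142hg, the precursor of the miR-142 arms shown above, which are known as miRNAs of blood cells, lies on chr11:87755577-87757270 (plus strand). It held 33.9, 37.1 and 30.2 CPM in normoxia and 23.4, 14.7 and 13.8 CPM in hyperoxia. The groups did not overlap, and hyperoxia libraries 2 and 3 were lower than library 1. The log2 difference was -0.91 ± 0.29 (SE, edgeR adjusted p = 0.249). Leaving out hyperoxia library 1 gave -1.26 with an edgeR adjusted p of 0.0422, a fit that called 0 members higher, 1.21% of genes higher and 0.0889% of genes lower. The neighbouring coding gene Tspoap1 had a log2 difference of 0.26 ± 0.44 (SE).

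Gm12708, on chr4:95193313-95209727, has as its nearest coding gene Jun, the immediate early transcription factor, across a gap of 141091 bases. Its levels were 5.53, 6.45 and 8.22 CPM in normoxia and 2.60, 1.38 and 4.26 CPM in hyperoxia, all 3 below the normoxia range. Its log2 difference was -1.28 ± 0.40 (SE, edgeR adjusted p = 0.249, DESeq2 adjusted p = 0.0522). Jun held 973, 1244 and 937 CPM against 843, 406 and 458 CPM, with groups that did not overlap either and a log2 difference of -0.82 ± 0.35 (SE, edgeR adjusted p = 0.375). For both genes hyperoxia library 2 was the lowest.

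Gm7160, on chr1:105979350-105990282 (minus strand), starts 124 bases from the start of Zcchc2, a zinc finger gene transcribed the other way. Its levels were 14.7, 15.5 and 15.3 CPM in normoxia and 9.81, 7.63 and 11.2 CPM in hyperoxia. The normoxia libraries lay close together and all hyperoxia libraries below them, with a log2 difference of -0.65 ± 0.22 (SE, edgeR adjusted p = 0.275). Zcchc2 held 44.1, 37.2 and 36.2 CPM against 37.8, 20.7 and 23.8 CPM, which overlap, and had a log2 difference of -0.47 ± 0.30 (SE).

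2310001H17Rik, on chr6:129208412-129238725, was the most abundant by CPM of the 8 lower members with the lowest p, at 163, 202 and 214 CPM in normoxia and 98.0, 69.7 and 152 CPM in hyperoxia. The groups did not overlap, although the highest hyperoxia value came close to the lowest normoxia value. The log2 difference was -0.84 ± 0.29 (SE, edgeR adjusted p = 0.284). Part of its exons lie opposite Gm47861. Clec2d, a lectin-like gene of the same cluster and the nearest coding gene, had a log2 difference of -0.80 ± 0.34 (SE, edgeR adjusted p = 0.364).

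The other lower members with the lowest p were Gm11110, Gm13073 and Gm37800. Gm11110 shares exon sequence on the opposite strand with Tnfsf9, the gene of 4-1BB ligand, so their reads may be mixed. It held 3.59, 4.38 and 2.87 CPM in normoxia and 1.47, 1.85 and 2.21 CPM in hyperoxia, with groups apart (log2 difference -0.96 ± 0.29, SE, edgeR adjusted p = 0.239). Tnfsf9 did not follow that order, at 171, 329 and 281 CPM against 31.7, 31.4 and 418 CPM. Gm13073, near the mitochondrial carrier gene Slc25a33, held 1.49, 2.66 and 0.982 CPM against 0.725, 0.373 and 0.580 CPM, low levels with groups apart (log2 difference -1.57 ± 0.50, SE). It averaged 1.71 CPM in normoxia and 0.559 CPM in hyperoxia, so it passed the level threshold through the normoxia group. Slc25a33 had a log2 difference of -0.07 ± 0.24 (SE). For Gm37800 the groups overlapped, at 13.8, 23.3 and 18.4 CPM against 9.04, 7.50 and 14.2 CPM (log2 difference -0.83 ± 0.27, SE, edgeR adjusted p = 0.275). Its nearest coding gene is Hlx, a homeobox transcription factor gene, at -0.49 ± 0.29 (SE). A second member nearest to Hlx, Gm34342, had a log2 difference of -0.68 ± 0.35 (SE) and was named for its position. It too passed the threshold through normoxia, at 1.38 CPM on average against 0.852 CPM in hyperoxia.

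**Figure D4:**
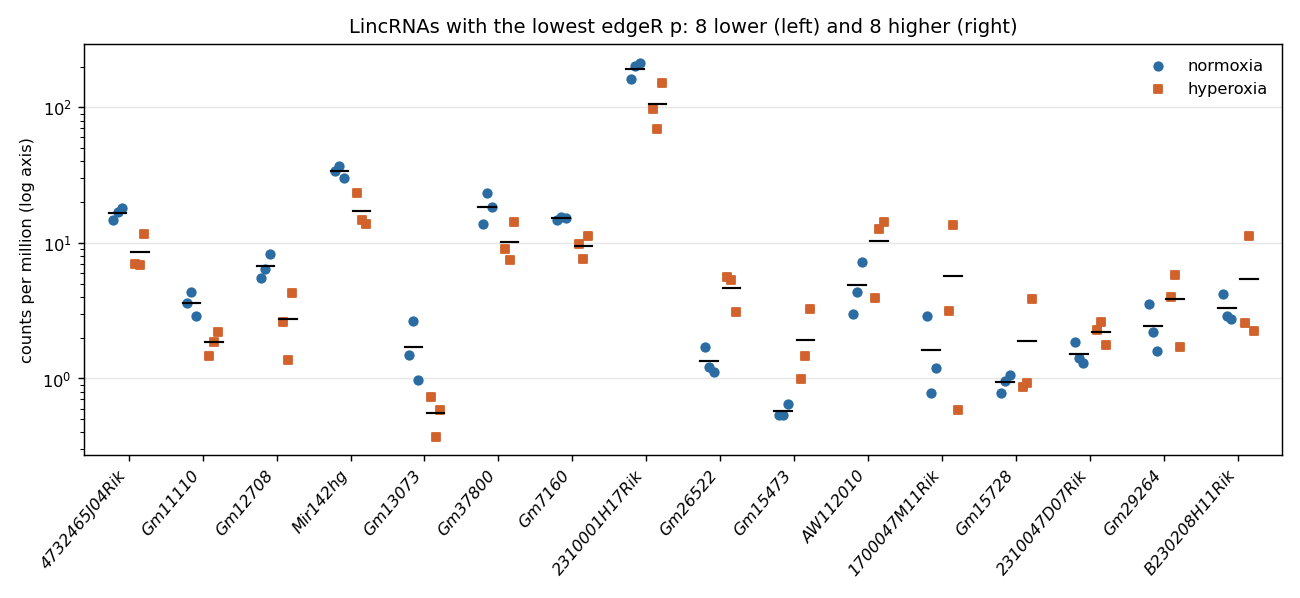
CPM (log axis) of the 8 lower and the 8 higher lincRNA genes with the lowest edgeR p, with points for the 3 libraries of each group and bars for group means. Groups lie apart for 7 of the 8 lower genes but only for Gm26522 and Gm15473 of the 8 higher ones.

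The largest difference of all was that of C030014I23Rik, named after its values were seen. It held 8.74, 14.7 and 16.1 CPM in normoxia and 4.89, 0.0810 and 1.32 CPM in hyperoxia. Hyperoxia library 2 was close to the floor of 3 counts there (0.0486 CPM), and the spread between hyperoxia libraries was wide. Its log2 difference was -2.54 ± 1.002 (SE, edgeR adjusted p = 0.347), and its exons overlap Gm47204 on the opposite strand.

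Among the higher members Gm26522 had the lowest p of all lincRNAs. It lies on chr7:88278787-88283529 (minus strand), inside the span of Ctsc but on the opposite strand and with no shared exon. Its levels were 1.69, 1.22 and 1.11 CPM in normoxia and 5.62, 5.31 and 3.08 CPM in hyperoxia, and the groups did not overlap. The log2 difference was 1.82 ± 0.38 (SE, edgeR adjusted p = 0.132, DESeq2 adjusted p = 0.00128). Ctsc, which encodes cathepsin C, the protease that activates the serine proteases of neutrophil granules, held 152, 139 and 133 CPM in normoxia and 246, 759 and 317 CPM in hyperoxia, a log2 difference of 1.63 ± 0.39 (SE, edgeR adjusted p = 0.153). Without a strand setting, reads from Ctsc introns inside Gm26522 exons could not be separated from reads of Gm26522.

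Gm15473, on chr6:17058806-17064996 (minus strand), starts 153 bases from Tes, which encodes the focal adhesion protein testin and runs the other way. It held 0.535, 0.541 and 0.646 CPM in normoxia and 0.997, 1.46 and 3.28 CPM in hyperoxia, with groups apart and the highest value in hyperoxia library 3. It passed the level threshold through the hyperoxia group. Its log2 difference was 1.71 ± 0.47 (SE, edgeR adjusted p = 0.202, DESeq2 adjusted p = 0.0334). Tes was at 0.15 ± 0.33 (SE), with hyperoxia values of 446.0, 196.5 and 360.5 CPM on both sides of the 296.5 to 319.8 CPM of normoxia.

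AW112010, an interferon-responsive transcript known to be translated in macrophages, held 2.96, 4.38 and 7.29 CPM in normoxia and 3.92, 12.7 and 14.3 CPM in hyperoxia. The groups overlapped, and hyperoxia libraries 2 and 3, the libraries with the most macrophage marker counts, were the high ones. Its log2 difference was 1.06 ± 0.46 (SE, edgeR adjusted p = 0.383). Ms4a8a, its nearest coding gene, stood at 0.103 to 0.494 CPM in normoxia and at 0.453, 2.48 and 0.982 CPM in hyperoxia (log2 difference 2.05 ± 0.73, SE).

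For the remaining 5 of the 8 higher members the groups overlapped, and only 1 or 2 hyperoxia libraries lay above the normoxia range. 1700047M11Rik held 13.5 CPM in hyperoxia library 2 and 0.580 to 3.13 CPM in the other 5 libraries (log2 difference 1.79 ± 0.97, SE), and its nearest coding gene Degs1, a ceramide synthesis gene, was at 0.66 ± 0.43 (SE). B230208H11Rik held 11.3 CPM in hyperoxia library 2 and 2.25 to 4.19 CPM elsewhere (0.69 ± 0.59, SE), beside Stx11, a syntaxin of granule release, at 0.60 ± 0.30 (SE). Gm15728 held 3.86 CPM in hyperoxia library 3 and 0.780 to 1.06 CPM elsewhere (0.98 ± 0.58, SE), beside the replication factor gene Rfc5 at 0.13 ± 0.36 (SE). Gm15728 passed the level threshold through the hyperoxia group, at 1.88 CPM on average against 0.935 CPM in normoxia. Gm29264 (0.66 ± 0.50, SE) and 2310047D07Rik (0.55 ± 0.34, SE) overlap each other's exons on opposite strands, so theirs is not independent evidence. Their nearest coding genes were Alox5ap, needed for leukotriene synthesis, at 0.73 ± 0.43 (SE), and Uspl1 at -0.35 ± 0.24 (SE).

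Of the other miRNA hosts, Mir155hg gives rise to miR-155, an miRNA induced by inflammatory stimuli in myeloid cells. It held 3.28, 3.65 and 4.14 CPM in normoxia and 2.72, 0.502 and 17.2 CPM in hyperoxia. Both extremes lay in hyperoxia, and the sign of its log2 difference of 0.84 ± 0.93 (SE) rests on hyperoxia library 3, without which it was -1.08. E130102H24Rik, host of Mir101a, held 4.97, 6.38 and 5.14 CPM against 3.83, 1.85 and 3.79 CPM, with groups apart (log2 difference -0.77 ± 0.35, SE, edgeR adjusted p = 0.395). 4833445I07Rik, host of Mir191 and Mir425, had a log2 difference of -0.32 ± 0.39 (SE), Snhg20, host of Mir6516, -0.55 ± 0.44 (SE), and Smkr-ps, which holds the miRNA model Gm23049, 0.23 ± 0.36 (SE), all with overlapping groups. Snhg20 passed the level threshold through the normoxia group, at 1.45 CPM on average against 0.990 CPM in hyperoxia. None of the 6 hosts passed the edgeR threshold, and their median log2 difference was -0.44 beside -0.33 over all members.

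The proteins that make and process small RNAs were represented by a list of 13 genes. None passed the adjusted threshold, and 1 was higher at an unadjusted p under 0.05, against 9.1% of all genes tested. This was Dkc1, the pseudouridine synthase of box H/ACA particles, with a log2 difference of 0.82 ± 0.28 (SE, edgeR adjusted p = 0.280). Drosha, which cuts primary miRNA transcripts in the nucleus, was at 0.19 ± 0.44 (SE). The median over the list was 0.05 beside 0.04 over all genes tested.

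Gm14005 is the annotation's name for Morrbid, on chr2:128178319-128502765 (minus strand), beside Bcl2l11. It held 46.8, 61.5 and 59.9 CPM in normoxia and 36.7, 33.2 and 59.8 CPM in hyperoxia, so hyperoxia library 3 lay inside the normoxia range and the other 2 below it. The log2 difference was -0.36 ± 0.24 (SE, edgeR adjusted p = 0.567). Bcl2l11, whose product Bim starts apoptosis, held 64.1, 65.3 and 64.8 CPM against 74.9, 49.3 and 121 CPM (log2 difference 0.34 ± 0.30, SE, edgeR adjusted p = 0.677). In hyperoxia library 3 Bcl2l11 was at its highest. Gm14010, a member inside the Gm14005 span, had a log2 difference of -0.63 ± 0.39 (SE).

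Ptgs2os2, known as lincRNA-Cox2, is a transcript induced in activated macrophages and lies 50816 bases from Ptgs2, the gene of cyclooxygenase-2. It held 33.4, 50.1 and 53.8 CPM in normoxia and 40.2, 12.1 and 94.6 CPM in hyperoxia, with both extremes in hyperoxia (log2 difference 0.10 ± 0.58, SE). Ptgs2 held 1170, 1441 and 1226 CPM against 1267, 230 and 920 CPM (log2 difference -0.60 ± 0.54, SE). For both genes hyperoxia library 2 held the lowest level. Dubr held 66.6 to 70.9 CPM in normoxia and 76.8, 37.4 and 56.6 CPM in hyperoxia (-0.24 ± 0.30, SE). The remaining members named for their level were Gm26532 at -0.03 ± 0.31, Gm19705 at -0.63 ± 0.31 and Gm15729 at -0.22 ± 0.28 (log2 differences, SE). Oip5os1 (Cyrano), a conserved RNA known to direct the decay of miR-7, is annotated as 1700020I14Rik and was named for that identity. It averaged 34.4 ± 1.41 CPM in normoxia and 29.8 ± 4.47 CPM in hyperoxia (SD, n = 3 each). The groups overlapped, with a log2 difference of -0.20 ± 0.18 (SE).

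Transcripts of the proteins that work with the nuclear lincRNAs were read against the shares over all genes tested: 3.91% lower and 9.1% higher at an unadjusted p under 0.05, 9.81% lower in every hyperoxia library, and 46.3% with a log2 difference below 0. Of 25 genes of paraspeckle proteins, 0 passed the adjusted threshold in either direction and 3 were lower at an unadjusted p under 0.05: Tardbp (TDP-43) at -0.71 ± 0.23, Cpsf7 at -0.55 ± 0.21 and Srsf10 at -0.59 ± 0.22 (log2 differences, SE). The core pair that binds Neat1 was near its normoxia level, with Nono at -0.08 ± 0.25 and Sfpq at -0.18 ± 0.21 (SE). Log2 differences were below 0 in 20 of the 25, with a median of -0.18, and groups lay apart in 5, all lower. Of 16 genes of nuclear speckles and Malat1 processing, 0 passed the adjusted threshold and 3 were lower at an unadjusted p under 0.05 (3.91% of all genes): Srsf2 at -0.56 ± 0.22, Srsf3 at -0.87 ± 0.29 and U2af2 at -0.64 ± 0.26 (SE). The speckle scaffold genes Son and Srrm2 held 201 to 208 and 158 to 179 CPM in normoxia and 148 to 170 and 123 to 133 CPM in hyperoxia, with groups apart for both. The list's median was -0.31, with 13 of 16 below 0 (46.3% of all genes).

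Of 15 genes of nuclear RNA decay, 0 passed the adjusted threshold and 2 were lower at an unadjusted p under 0.05, against 3.91% of all genes. Pabpn1, the nuclear poly(A)-binding protein that also directs noncoding RNAs to decay, held 11.3, 13.4 and 12.8 CPM in normoxia and 6.34, 7.73 and 7.81 CPM in hyperoxia. Its groups lay well apart, and its log2 difference was -0.77 ± 0.19 (SE, edgeR adjusted p = 0.163). Smg6, an endonuclease of nonsense-mediated decay, was at -0.94 ± 0.31 (SE). A further list held 21 tested small RNA host genes and other long noncoding RNAs that are not members. Some of them are typed lincRNA but fell under the level threshold, and the others carry another gene type. At an unadjusted p under 0.05, 1 was higher, Trerf1 at 1.68 ± 0.63, and 1 lower, Snhg15 at -0.73 ± 0.31 (SE). The shares over all genes were 9.1% and 3.91%, and the list's median was -0.09. Trerf1, listed by its annotated type of processed transcript, stood at only 0.0942 to 0.781 CPM, also under the level threshold. RefSeq types were not checked for this list, so it may hold genes that encode proteins.

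Position was compared next. A tested nearest coding gene was found for 90 members (85 distinct genes). In 53 pairs (58.9%) the member and its neighbour had log2 differences of the same sign: both below 0 in 33 and both above 0 in 20. The member was lower and the neighbour higher in 32, and the opposite held in 5. Across the pairs, which share the same libraries, Pearson's r was 0.38 and Spearman's rho 0.33, given as a description. The neighbours had a median log2 difference of 0.03, so the lean of the members towards normoxia was not seen in them as a group. For the 75 pairs whose spans do not overlap, 44 shared a sign.

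**Figure D5:**
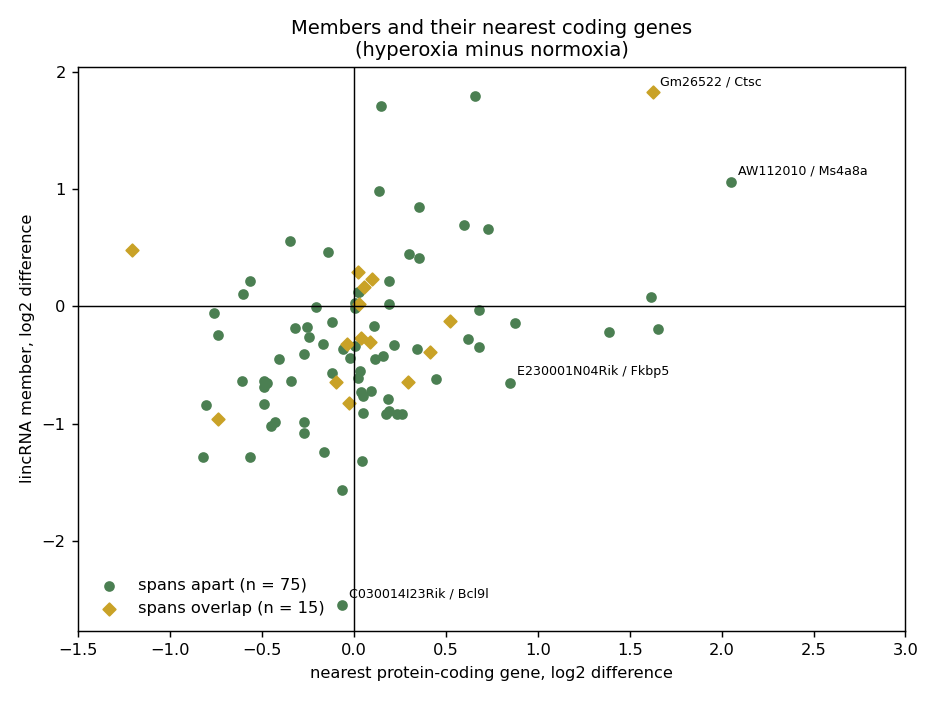
Log2 difference (hyperoxia minus normoxia) of each lincRNA gene against that of its nearest protein-coding gene for 90 pairs, with 75 pairs whose spans lie apart in green and 15 overlapping pairs in gold. Gm26522 and Ctsc lie in the upper right corner, and 32 pairs lie in the lower right quadrant, with the lincRNA lower and the coding gene higher.

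Pairs of opposite sign included E230001N04Rik and Fkbp5, named after their values were seen. Fkbp5, a chaperone gene induced by glucocorticoids, held 8.48 to 9.54 CPM in normoxia and 12.1, 20.4 and 16.1 CPM in hyperoxia (log2 difference 0.85 ± 0.22, SE, edgeR adjusted p = 0.179). E230001N04Rik, 5193 bases away, held 2.23, 2.57 and 2.25 CPM against 1.56, 1.31 and 1.54 CPM (-0.65 ± 0.30, SE, edgeR adjusted p = 0.403). Each gene had groups apart, in opposite directions. Around Prkcq, a protein kinase C gene, 3 members share the same nearest gene, and all 3 had log2 differences below 0: Gm38171 at -0.40 ± 0.36, 8030442B05Rik at -0.99 ± 0.52 and Gm13291 at -1.08 ± 0.64 (SE), with Prkcq at -0.27. Gm13291 lies inside the span of 8030442B05Rik, so the 3 are not independent, and 73.1% of all members were below 0. The groups overlapped for Gm38171 and 8030442B05Rik.

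The members were also grouped by gene structure. Merged exon length ran from 269 bases, in Mir142hg, to 20771 bases, in Neat1, with a median of 1739.5, and members had 1 to 16 exon blocks with a median of 3. The median log2 difference was -0.13 over 13 members with a single exon block and -0.34 over the 91 others. It was -0.29 over the 60 members whose span overlaps no other gene and -0.35 over the 44 that overlap one. In each class 15 members were lower in every hyperoxia library. Small RNA genes, ribosomal RNA genes and genes typed misc_RNA or TEC were not counted as overlaps, so miRNA hosts such as Mir142hg are among the 60. For 18 members with a coding gene head to head within 1 kb the median log2 difference was -0.34. Across the 104 members the log2 difference had a correlation of -0.04 with log2 CPM per kb, given as a description. Members lay on all 19 autosomes, with 14 on chromosome 2 and 12 on chromosome 1.

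Promoter windows are shown for some of the 8 members with the lowest p in each direction, because they hold the sequence around a RefSeq start. Windows of other such members, Gm13073 among them, were also available and are not shown. RefSeq (GRCm38.p6) gave 71 windows for 59 of the 104 members, each from 250 bases before to 50 bases after a start. The windows were searched on both strands for the motifs ACGTG and GCGTG (hypoxia response core), TGACGTCA (cyclic AMP response element), AGGAAGT (ETS and PU.1 core), CCAAT and TATAAA. Matches are in capitals, and a match on the other strand appears as its reverse complement. The longer TGACGTCA does not contain ACGTG, and the palindrome cacgtg counts as ACGTG on both strands.
Gm7160, chr1:105990233-105990532, minus strand: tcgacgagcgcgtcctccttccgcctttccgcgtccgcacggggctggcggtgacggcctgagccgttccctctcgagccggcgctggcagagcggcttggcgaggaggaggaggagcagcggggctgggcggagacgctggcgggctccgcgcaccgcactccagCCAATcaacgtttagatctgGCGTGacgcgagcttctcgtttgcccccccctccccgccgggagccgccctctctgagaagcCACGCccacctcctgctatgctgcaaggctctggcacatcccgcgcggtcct
Gm12708, chr4:95193054-95193353, plus strand: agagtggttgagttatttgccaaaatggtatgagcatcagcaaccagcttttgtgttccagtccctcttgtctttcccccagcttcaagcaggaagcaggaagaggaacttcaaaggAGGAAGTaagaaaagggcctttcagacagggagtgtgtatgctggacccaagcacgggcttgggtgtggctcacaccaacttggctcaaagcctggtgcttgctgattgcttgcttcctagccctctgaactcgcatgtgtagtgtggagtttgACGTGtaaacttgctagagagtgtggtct
4732465J04Rik, chr10:95772883-95773182, plus strand: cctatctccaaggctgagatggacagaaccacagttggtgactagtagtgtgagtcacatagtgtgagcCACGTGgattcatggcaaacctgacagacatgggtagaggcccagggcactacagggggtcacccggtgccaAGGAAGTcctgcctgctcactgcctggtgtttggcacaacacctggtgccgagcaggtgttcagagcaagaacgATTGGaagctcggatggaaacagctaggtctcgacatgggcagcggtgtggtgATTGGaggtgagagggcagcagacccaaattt
Gm15473, chr6:17065538-17065837, minus strand: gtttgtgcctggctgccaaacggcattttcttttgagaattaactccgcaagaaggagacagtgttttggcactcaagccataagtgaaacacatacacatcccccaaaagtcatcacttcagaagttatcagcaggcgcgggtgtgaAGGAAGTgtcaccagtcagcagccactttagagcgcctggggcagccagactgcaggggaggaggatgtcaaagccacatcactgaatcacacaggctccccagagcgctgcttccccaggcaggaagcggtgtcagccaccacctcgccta
2310001H17Rik, chr6:129238433-129238732, minus strand: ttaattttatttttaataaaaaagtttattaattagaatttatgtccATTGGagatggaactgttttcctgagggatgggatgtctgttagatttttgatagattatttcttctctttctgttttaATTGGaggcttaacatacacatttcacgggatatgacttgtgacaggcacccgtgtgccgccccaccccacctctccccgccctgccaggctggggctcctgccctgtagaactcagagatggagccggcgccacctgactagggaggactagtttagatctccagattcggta
The Gm7160 window, shared with the head-to-head gene Zcchc2, is a CpG-rich one with 36 CpG pairs and 70.7% G and C, and holds CCAAT on the strand shown and GCGTG on each strand. The other 4 windows have 3 to 8 CpG pairs. Gm12708 has ACGTG and AGGAAGT, Gm15473 has AGGAAGT, and 2310001H17Rik has CCAAT matches on the other strand. A second 2310001H17Rik window, at another RefSeq start and not shown, has 0 matches. Of the other windows not shown, those of Gm15728 and AW112010 also have 0. Those of Gm13073, 1700047M11Rik, 2310047D07Rik and B230208H11Rik have matches. Every window shown has a match, so the shown windows do not represent all that were available. The Gm15473 window is at a RefSeq start 591 bases from the GENCODE start. The 4732465J04Rik window, which holds CACGTG and AGGAAGT, is at a RefSeq start 27056 bases inside the GENCODE gene. A match is a string of letters and not a shown binding site.

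Over all member windows, AGGAAGT was present in 16.9% against 9.35% of 32851 RefSeq windows. ACGTG was present in 23.9% against 19.6%, GCGTG in 29.6% against 32.4% and TGACGTCA in 2.82% against 1.79%. CCAAT was present in 39.4% against 37.4%, and TATAAA in 9.86% against 13.6%. The median G and C content was 50.3% in member windows and 52.7% in all windows. These shares are descriptions and were not tested, and some windows belong to the same gene.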

How the data were processed

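Neutrophil RNA from 6 libraries, 3 per group, was analysed from 1 table of whole-number gene counts per library, deposited by the authors without normalization. The submitters' processing notes name STAR 2.4.2a, the build GRCm38 and DESeq2 1.16.1. How reads were primed, assigned to genes and sorted by strand, and which annotation release was used, are not given in the sources used here. Reads of genes that lie on opposite strands therefore cannot be told apart.

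Of 43432 gene IDs, 42548 matched GENCODE M21, which gave gene types, symbols and GRCm38 positions. Groups came from the housing condition in the labels. Counts were tested with edgeR 4.0.16 in R 4.3.3 (filterByExpr, which kept 12908 of 23147 genes with a count, TMM scaling, robust quasi-likelihood test, two-sided, Benjamini-Hochberg adjustment over all genes tested). CPM were counts over column sums, and a floor of 3 counts came to between 0.0486 and 0.0776 CPM. Alternatives were DESeq2 1.42.0, limma-voom (limma 3.58.1), other scaling, no filter, members free of overlap with other genes, and each library left out. Overlap with small RNA, ribosomal RNA, misc_RNA and TEC genes was not counted. With 3 against 3 libraries, the smallest two-sided exact permutation p for a single value is 0.1, so no permutation test was used. No pair of libraries agreed within sampling noise. On simulated data for this comparison, with 200 of 12908 genes changed, edgeR recovered 60.9% of 4-fold and 86.4% of 8-fold changes, with 33 of 475 calls false, and DESeq2 71.6% and 89.4%, with 104 of 587 false.

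Named members were the 10 with the highest CPM per kilobase, the 8 with the lowest edgeR p in each direction with their nearest coding genes, the 3 on each side of the level threshold, and members among names on a list of known lincRNAs. Others are said to be named for their position, identity or values. The members and lists were chosen with earlier results of these data known. An allele shared by all mice is not reported here.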

Additional observations from a re-analysis of the deposited data

How the results depend on the processing

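No paired analysis was possible because the labels carry no replicate numbers and tie no normoxia library to a hyperoxia library. Of 32 named members, 23 kept the sign of their log2 difference under every alternative run, and 26 of 384 values reversed. At an adjusted p under 0.05 the count of higher members was 0 in edgeR and 2 in DESeq2 (Gm26522, Gm15473). It was 1 in edgeR with no filter on low counts (Gm26522). DESeq2 without hyperoxia replicate 2, an alternative chosen after seeing the data, gave 2, the same genes as in DESeq2 on all libraries. Of these genes, Gm15473 was a member only through hyperoxia. The count of lower members was 0 in edgeR, 1 in DESeq2 (4732465J04Rik), 3 in DESeq2 without hyperoxia replicate 2 (4732465J04Rik, C030014I23Rik, Gm17619) and from 0 to 1 with 1 library left out, where the call was Mir142hg without hyperoxia replicate 1. Members lower at an unadjusted p under 0.05 numbered 14 in edgeR, 25 in limma-voom, 7 among the 60 members whose span overlaps no other gene, and 5 to 24 with 1 library left out: 5 without normoxia replicate 3, 6 without normoxia replicate 2 and 24 without hyperoxia replicate 3. Members lower in every hyperoxia library numbered 30, or 37 with TMM-scaled levels (10.3% of genes), 15 among the overlap-free members and 32 to 54 with 1 library left out, with 46 without normoxia replicate 1 and 54 without hyperoxia replicate 3. Higher members numbered 2, 1 among the overlap-free, 6 in the DESeq2 alternative without hyperoxia replicate 2, and 2 to 9 with 1 library left out. Leaving out a library makes groups lie apart more readily in any gene. Without hyperoxia replicate 2 the shares over all genes were 17.1% lower and 13.8% higher, against 9.81% and 8.1% with all libraries. Shares were not counted for the other left-out libraries, nor for an unadjusted p with a library left out. Those member counts therefore cannot be read as a stronger lean. The normoxia share of counts was 0.299% for the overlap-free members. The median log2 difference of the members stayed between -0.55 and -0.25 when 1 library was left out. Reversed log2 differences in limma-voom were those of 1110002J07Rik (-0.67), Mir155hg (-0.47) and Ptgs2os2 (-0.31), and in DESeq2 without hyperoxia replicate 2 those of B230208H11Rik (-0.41), Dubr (0.011), Gm26532 (0.24), Gm42418 (0.032), Malat1 (0.0087) and Neat1 (0.19). With 1 library left out, reversals gave ranges of -1.81 to 0.63 for 1110002J07Rik, -0.33 to 0.28 for Gm26532, -0.16 to 0.10 for Gm42418, -0.89 to 0.22 for Neat1, -0.68 to 0.58 for Ptgs2os2, -0.38 to 1.07 for B230208H11Rik, -0.59 to 0.039 for Dubr, -0.26 to 0.039 for Malat1 and -1.08 to 1.41 for Mir155hg. The cause of these changes was not tested. Members near 1 CPM rest on few counts per library relative to Malat1, which limits their precision.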

Other observations

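The other members lower at an unadjusted p under 0.05 were Gm17619, Gm26535, Gm9530, Gm26797 and Gm4262, named after their values were seen. Gm17619, whose nearest coding gene is the zinc finger gene Zfp217, held 12.5, 15.5 and 16.5 CPM in normoxia and 6.93, 11.7 and 9.80 CPM in hyperoxia, with a log2 difference of -0.64 ± 0.22 (SE, edgeR adjusted p = 0.284). Gm26535, nearest to Marcks, an actin-binding substrate of protein kinase C, held 4.75, 5.72 and 6.15 CPM against 1.83, 0.875 and 4.15 CPM (-1.28 ± 0.49, SE, edgeR adjusted p = 0.330). Gm9530, nearest to the immediate early gene Ier5, held 2.72, 4.28 and 4.39 CPM against 0.793, 2.33 and 2.54 CPM (-1.02 ± 0.41, SE, edgeR adjusted p = 0.356). Every hyperoxia library was lower than every normoxia library for all 5 of these genes, and none passed the adjusted threshold in edgeR. 1200007C13Rik, also named after its values were seen, is 1 of the 30 members with groups apart in the same direction. It held 7.11, 8.38 and 7.42 CPM against 4.44, 0.713 and 3.75 CPM, with hyperoxia library 2 the lowest (-1.32 ± 0.58, SE, edgeR adjusted p = 0.384). Its nearest coding gene, the phosphatase gene Ptpn1, was at 0.04.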
